A study of Rattus norvegicus with 20 samples.

Results

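Voltage-gated sodium channel genes of central neurons were described across 5 regions of the brain and spinal cord of injured rats. The members were 8 genes chosen by name, 5 alpha subunit genes (Scn1a, Scn2a, Scn3a, Scn8a and Scn9a) and 3 beta subunit genes (Scn2b, Scn3b and Scn4b), of 30443 genes listed. All 8 were listed, and each passed a filter of at least 1 FPKM in any library, which kept 15210 genes. FPKM scales the fragments of a gene by transcript length and by the mapped reads of the library, so levels can be compared between genes per length.

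The animals were 4 adult female Long-Evans rats, an outbred strain, labelled WT and aged about 6 to 8 months. Every animal had a hemicontusion at cervical level 4 with a displacement of 0.7 mm, and stimulating electrodes implanted in motor cortex contralateral to the injury. Thus the control animals were also injured and implanted, and no uninjured tissue was compared. In the stimulated group, 2 animals received current at 10 Hz and 80% of movement threshold for 5 hours a day over 1 week, in cycles of 5 minutes on and 2 minutes off. In the control group, 2 animals were connected to the stimulator with no current. Each animal gave 5 tissue pieces and 20 libraries were made in all. Region 1 was the subcortical white matter below the electrodes and region 2 the matching tissue of the other hemisphere. Region 3 was the cord rostral to the injury (about C2 to C4), region 4 the lesion (about C4) and region 5 the cord caudal to it (about C4 to C6 in the labels).

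Voltage-gated sodium channels carry the inward current of the action potential. An alpha subunit forms the pore and the voltage sensors, and beta subunits are single-pass membrane proteins that bind it, change its gating and act in cell adhesion. In central neurons the channels are packed at the axon initial segment and at nodes of Ranvier, held there by ankyrin-G. Scn2a (Nav1.2) and Scn8a (Nav1.6) are the main alpha subunits of excitatory neuron axons, with Scn2a in immature and unmyelinated axons and Scn8a at mature nodes. Scn1a (Nav1.1) is prominent in fast-spiking interneurons and also in spinal motor neurons. Scn3a (Nav1.3) is mainly an embryonic channel, and Scn9a (Nav1.7) is best known from peripheral sensory neurons. Scn2b and Scn4b pair with alpha subunits through a disulfide bond, whereas Scn3b binds without it.

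The libraries were set against cell type markers. The tissue labelled white matter contained neuronal RNA. Its summed level of 6 cortical projection neuron markers was 263 to 386 FPKM, against 3.49 to 17.4 in cord, and 10 pan-neuronal markers summed to 1091 to 1863 FPKM, against 752 to 1373 in cord. A list of 7 oligodendrocyte markers summed to 698 to 2964 FPKM in white matter and 7353 to 10723 in cord. Several libraries stood apart. Region 1 of stimulated animal 1 had 119 FPKM summed over 6 striatal neuron markers, against 29.0 to 41.2 in the other white matter libraries. Region 2 of stimulated animal 2 had 292 FPKM over 6 microglia and macrophage markers, against 52.0 to 59.7 in the other libraries of that region. Region 3 of control animal 2 had the highest cortical marker sum of the cord libraries. Both stimulated libraries of region 5 carried sensory neuron and Schwann cell genes, given with Scn9a below. In such bulk tissue, fewer cells of a type and less RNA per cell cannot be told apart.

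The members lie partly side by side in the genome. In the RefSeq annotation of GRCr8, a later build than the one used for the table, Scn3a and Scn2a are neighbours, Scn1a, Scn9a and Scn7a follow each other, and Scn2b and Scn4b are neighbours. Promoter sequence from RefSeq (GRCr8) was at hand for 6 of the 8 members. The 200 bases before the start are shown for the alpha subunit genes Scn2a and Scn8a, whose balance differed between tissues, and for the adjacent Scn2b and Scn4b, which differed between tissues in opposite directions. They lie at chr3:70710756-70710955 (plus strand) for Scn2a, chr7:133861027-133861226 (plus strand) for Scn8a, chr8:54322183-54322382 (plus strand) for Scn2b and chr8:54343673-54343872 (plus strand) for Scn4b, and are written 5′ to 3′ on the strand of the gene, with each GGGCGG, read on either strand, in capitals.
Scn2a: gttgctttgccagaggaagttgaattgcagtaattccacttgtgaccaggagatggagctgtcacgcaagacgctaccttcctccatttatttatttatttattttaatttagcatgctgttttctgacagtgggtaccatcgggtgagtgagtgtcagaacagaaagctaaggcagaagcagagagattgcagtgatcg
Scn8a: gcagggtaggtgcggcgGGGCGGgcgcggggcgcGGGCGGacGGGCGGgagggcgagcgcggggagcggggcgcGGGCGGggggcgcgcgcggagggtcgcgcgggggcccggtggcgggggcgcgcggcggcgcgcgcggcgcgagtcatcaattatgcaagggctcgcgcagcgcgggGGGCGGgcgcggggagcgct
Scn2b: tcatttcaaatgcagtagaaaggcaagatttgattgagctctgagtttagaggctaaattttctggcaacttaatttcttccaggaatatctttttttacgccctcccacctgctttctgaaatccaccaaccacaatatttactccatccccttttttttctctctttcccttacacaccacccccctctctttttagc
Scn4b: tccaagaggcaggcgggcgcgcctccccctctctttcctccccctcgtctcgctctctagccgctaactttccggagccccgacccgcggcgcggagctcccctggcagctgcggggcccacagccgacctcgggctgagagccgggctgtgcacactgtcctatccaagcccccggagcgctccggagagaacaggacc
The Scn8a promoter had a GC content of 86.5% and held GGGCGG 5 times. The Scn4b promoter had a GC content of 71%, and those of Scn2a and Scn2b had 43.5% and 40%. The median of all 33469 promoters was 52%, with quartiles of 44.5% and 61%. On both strands, the letters searched were CAGCACC (present in 4.35% of all promoters), GGACAG (in 14.7%), TGACG (in 15.9%), GGGCGG (in 28.6%), TATAAA (in 10.4%) and CACGTG (in 4.68%). Among the 6 member promoters, GGGCGG was found in Scn8a and GGACAG in Scn4b, and there was no other match. A match is a description of these letters and not a binding site.

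The levels were ordered differently in the brain and in the cord. In white matter, Scn2a was the highest alpha subunit gene, followed by Scn8a, Scn1a, Scn3a and Scn9a. In cord, Scn8a and Scn1a were highest, and Scn2a came after them. Among the beta subunit genes, Scn2b was highest in white matter and Scn4b in cord. No member was at the floor of 0.1 FPKM in any library, and all but Scn9a reached 1 FPKM in every library. Scn9a reached it in 7 of 20.

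**Figure D1:**
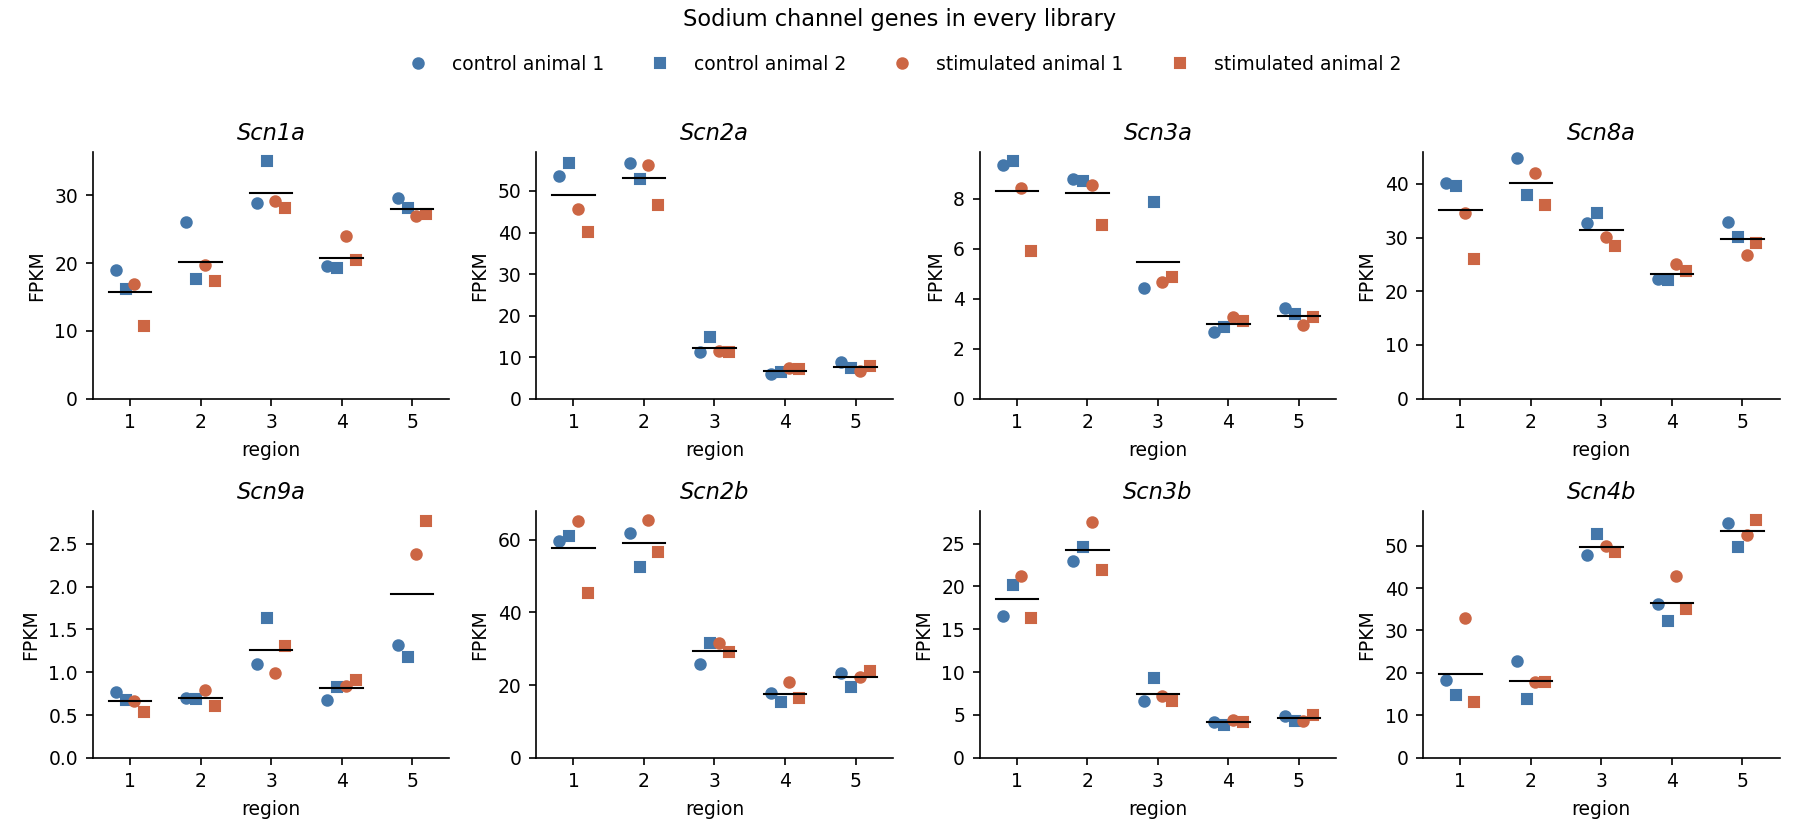
FPKM of the 8 sodium channel genes in each library, by region (1 and 2 white matter, 3 to 5 spinal cord). Each point is 1 library and black lines give the mean over the 4 animals. Scn2a, Scn2b and Scn3b lie higher in all white matter libraries than in any cord library, and Scn9a has its highest points in the stimulated libraries of region 5.

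White matter was compared with spinal cord to ask how the channel genes differ between brain and cord. All 8 members were called, with 5 higher in white matter (Scn2a, Scn3a, Scn8a, Scn2b and Scn3b) and 3 higher in cord (Scn1a, Scn9a and Scn4b). Differences were tested with limma on log2 FPKM, with Benjamini-Hochberg adjusted p-values over all genes tested and 0.05 as the threshold. By the same test, 72.2% of all genes were called, 25% higher and 47.1% lower in white matter, so a call by itself sets no member apart. The all-gene median difference was -0.18 on the log2 scale. The 8 white matter libraries come from the same 4 animals as the 12 cord libraries. The calls of the 8 members were also made with the animal as a block. That block removes differences between animals, but libraries of the same animal and tissue still count as separate values. The p-values thus rest on 4 animals.

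Scn2a (ENSRNOG00000005018) had the largest difference among the members. Values are given here and below in the order control animal 1, control animal 2, stimulated animal 1 and stimulated animal 2. Region 1 had 53.6, 56.8, 45.6 and 40.0 FPKM and region 2 had 56.8, 52.9, 56.1 and 46.7. In the cord, region 3 had 11.3, 14.8, 11.5 and 11.3 FPKM, the lesion had 6.05, 6.51, 7.35 and 7.21, and region 5 had 8.74, 7.28, 6.68 and 7.97. The lowest white matter library was thus above the highest of the cord. White matter averaged 51.1 ± 6.22 FPKM (SD, n = 8) and the cord 8.89 ± 2.71 (SD, n = 12). The log2 difference was 2.57 (SE 0.08, limma adjusted p = 6.58e-16), or 5.93-fold. Within each tissue, regions 1 and 2 overlapped, region 3 was above region 5, and regions 5 and 4 overlapped.

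Scn8a (ENSRNOG00000005309), the mature nodal channel, was more even across the regions. Region 1 had 40.1, 39.6, 34.6 and 26.1 FPKM and region 2 had 44.7, 37.9, 42.1 and 36.0. Region 3 had 32.8, 34.6, 30.1 and 28.5 FPKM, the lesion had 22.2, 22.0, 25.0 and 23.8, and region 5 had 32.9, 30.1, 26.7 and 29.0. The white matter and cord libraries overlapped, and only region 4 lay below its neighbour in the order of the region means without overlap. White matter averaged 37.6 ± 5.67 FPKM (SD, n = 8) and the cord 28.1 ± 4.24 (SD, n = 12). The log2 difference was 0.42 (SE 0.07, limma adjusted p = 5.76e-05). This direction depended on the scale. When each library was set relative to the mean log2 level of the 10 pan-neuronal markers, Scn8a was lower in white matter by 0.29 (log2 difference -0.29, limma adjusted p = 1.00e-06). Among these markers, Eno2 did not pass the filter of 1 FPKM but entered the mean with equal weight. It ranged from 0.432 to 0.864 FPKM in white matter and from 0.174 to 0.859 in cord.

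Scn1a (ENSRNOG00000053122) was higher in cord. Region 1 had 19.0, 16.1, 16.9 and 10.8 FPKM and region 2 had 26.1, 17.7, 19.7 and 17.4. Region 3 had 28.9, 35.1, 29.2 and 28.2 FPKM, the lesion had 19.5, 19.3, 24.0 and 20.4, and region 5 had 29.7, 28.2, 26.9 and 27.2. The lesion libraries overlapped the white matter libraries of region 2, whereas regions 3 and 5 were above all white matter libraries. White matter averaged 18.0 ± 4.26 FPKM (SD, n = 8) and the cord 26.4 ± 4.74 (SD, n = 12). The log2 difference was -0.57 (SE 0.10, limma adjusted p = 2.98e-05).

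Scn3a (ENSRNOG00000005007), the embryonic channel, was present at lower levels. It ranged from 5.89 to 9.51 FPKM in white matter and from 2.68 to 7.84 in cord. The cord value of 7.84 was region 3 of control animal 2, and the other cord libraries did not exceed 4.87 FPKM. White matter averaged 8.26 ± 1.23 FPKM (SD, n = 8) and the cord 3.91 ± 1.43 (SD, n = 12). The log2 difference was 1.13 (SE 0.11, limma adjusted p = 1.70e-08) and was 1.19 without the region 3 library of control animal 2.

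Scn2b (ENSRNOG00000016221) and Scn3b (ENSRNOG00000057221) were higher in white matter. For Scn2b, region 1 had 59.6, 61.1, 65.1 and 45.4 FPKM and region 2 had 61.8, 52.5, 65.3 and 56.7. In cord, region 3 had 25.7, 31.6, 31.7 and 29.0 FPKM of Scn2b, the lesion had 17.9, 15.4, 21.0 and 16.3, and region 5 had 23.4, 19.6, 22.3 and 23.8. No cord library reached the lowest white matter library. The log2 difference of Scn2b was 1.37 (SE 0.08, limma adjusted p = 6.31e-12), between means of 58.4 ± 6.76 FPKM (SD, n = 8) and 23.1 ± 5.54 (SD, n = 12).

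For Scn3b, region 1 had 16.6, 20.2, 21.2 and 16.3 FPKM and region 2 had 23.0, 24.6, 27.6 and 21.9. In cord, region 3 had 6.60, 9.26, 7.25 and 6.61 FPKM of Scn3b, the lesion had 4.14, 3.81, 4.39 and 4.21, and region 5 had 4.86, 4.29, 4.35 and 5.02. Here too the tissues were separate. The means were 21.4 ± 3.81 FPKM (SD, n = 8) and 5.40 ± 1.67 (SD, n = 12), a log2 difference of 2.02 (SE 0.07, limma adjusted p = 9.81e-15). Thus 3 members (Scn2a, Scn2b and Scn3b) were higher in every white matter library than in any cord library, as were 10.3% of all genes.

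Scn4b (ENSRNOG00000026679), whose cytoplasmic tail is associated with resurgent current, had the opposite pattern to its neighbour Scn2b. Region 1 had 18.3, 14.8, 32.9 and 13.1 FPKM and region 2 had 22.7, 13.8, 17.8 and 17.8. In cord, region 3 had 47.7, 52.7, 49.8 and 48.6 FPKM, the lesion had 36.3, 32.2, 42.8 and 35.1, and region 5 had 55.4, 49.8, 52.6 and 55.9. Only the value of 32.9 FPKM reached the range of the cord libraries. This was region 1 of stimulated animal 1, the library with the high striatal markers, where Rgs9 was 11.0 FPKM against 0.924 to 1.71 in the other white matter libraries. The part of striatal RNA in this Scn4b level was not tested. The log2 difference of Scn4b was -1.34 (SE 0.13, limma adjusted p = 2.41e-08), between means of 18.9 ± 6.44 FPKM (SD, n = 8) and 46.6 ± 8.11 (SD, n = 12), and it was -1.48 without that library.

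Scn9a (ENSRNOG00000006639) was the lowest member in every library. In white matter it ranged from 0.540 to 0.794 FPKM and in cord from 0.679 to 2.77. White matter averaged 0.680 ± 0.0818 FPKM (SD, n = 8) and the cord 1.33 ± 0.643 (SD, n = 12), and the log2 difference was -0.85 (SE 0.15, limma adjusted p = 6.46e-05). Without the 2 stimulated libraries of region 5 the difference was -0.67 (limma adjusted p = 8.35e-05).

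**Figure D2:**
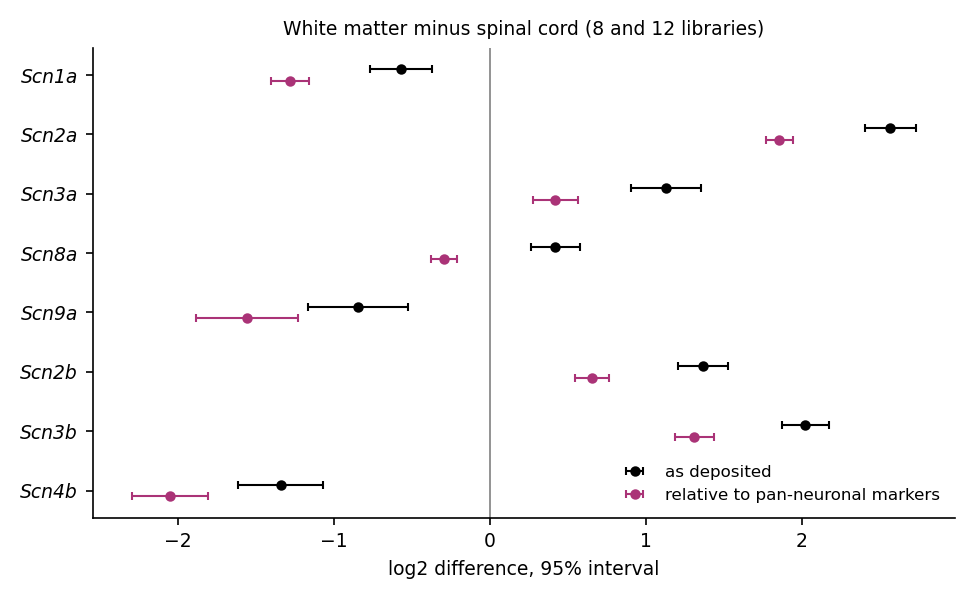
Log2 difference of white matter minus spinal cord for each sodium channel gene, with 95% intervals from limma (8 and 12 libraries). Black points use FPKM as deposited and purple points FPKM relative to the pan-neuronal markers of the same library. Scn2a, Scn3a, Scn2b and Scn3b lie right of 0 and Scn1a, Scn9a and Scn4b left of 0 on both scales, whereas Scn8a changes side from 0.42 to -0.29.

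The pan-neuronal markers give a scale on which a difference in neuronal RNA is partly removed. On this scale 4 members were higher and 4 lower in white matter, beside 8.74% of all genes higher and 82.2% lower. The scale moved the median of all genes from -0.18 to -0.89. Scn2a stayed at 1.86 (limma adjusted p = 1.38e-17) and Scn4b at -2.05 (limma adjusted p = 5.40e-12). The markers themselves differed between the tissues, from a log2 difference of 3.41 for Syt1, a synaptic vesicle calcium sensor, to -0.57 for Tubb3, a neuronal tubulin, so the scale depends on the markers chosen.

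The make-up of the channel transcripts within a library does not depend on how libraries were scaled. The shares are of the FPKM summed over the 5 alpha members or the 3 beta members. Scn2a made up 44.3% ± 2.06 of the alpha sum in white matter (SD, n = 8) and 12.8% ± 1.91 in the cord (SD, n = 12). Scn1a made up 15.4% ± 1.91 and 38.5% ± 1.32 in the same order. The share of Scn8a was 32.5% ± 0.628 and 41.2% ± 2.09. No share of these 3 genes overlapped between the tissues. The ratio of Scn2a to Scn8a was 1.27 to 1.53 in white matter libraries and 0.242 to 0.429 in cord libraries. Within the cord it was 0.388 ± 0.0356 in region 3, 0.291 ± 0.0133 in region 4 and 0.258 ± 0.0146 in region 5 (SD, n = 4 each).

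Among the beta subunit genes, Scn4b made up 18.8% ± 4.09 of the sum in white matter (SD, n = 8) and 62.2% ± 4.00 in cord (SD, n = 12). Scn2b made up 59.4% ± 2.99 and 30.6% ± 2.86, and Scn3b 21.8% ± 3.24 and 7.14% ± 1.31. The ratio of Scn2b to Scn4b was 1.98 to 4.12 in white matter and 0.393 to 0.635 in cord. The lowest white matter value was region 1 of stimulated animal 1. Summed over the alpha members, region 1 had 109 ± 18.7 FPKM, region 2 had 122 ± 12.6, region 3 had 80.8 ± 9.01, the lesion had 54.6 ± 4.35 and region 5 had 70.5 ± 4.37 (SD, n = 4 each).

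**Figure D3:**
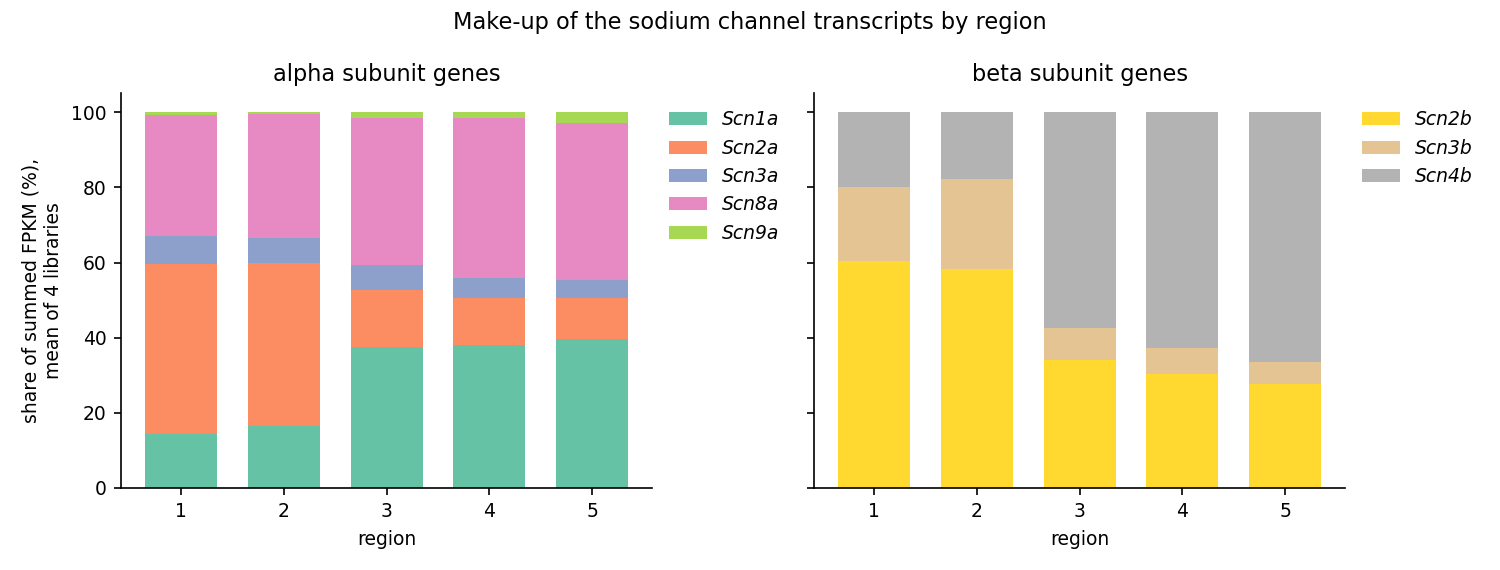
Share of each gene in the summed FPKM of the 5 alpha subunit genes (left) and the 3 beta subunit genes (right), as the mean of the 4 libraries of each region. The y axis is in percent. Scn2a and Scn2b fill the largest part of regions 1 and 2, and Scn8a, Scn1a and Scn4b that of regions 3 to 5.

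Region 1, below the electrodes, was compared with region 2 of the other hemisphere. Scn3b was lower in region 1 by 0.39 on the log2 scale (log2 difference -0.39, SE 0.11, limma adjusted p = 0.0401), and was the only member called. All 4 animals had less Scn3b in region 1 than in region 2, and the ranges of the regions were separate, as for 3.16% of all genes. By the same test, 8.61% of all genes were called and 1.76% were lower in region 1. This call was lost in leaving out control animal 1, control animal 2 or stimulated animal 1, with adjusted p of 0.227, 0.0978 and 0.249. Without the region 1 library of stimulated animal 1 alone it was -0.46 (limma adjusted p = 0.0381). Relative to the pan-neuronal markers it was -0.26 and was not called (limma adjusted p = 0.0704). Of 7 oligodendrocyte markers 6 were higher in region 1 (median 0.82), with sums of 1520 to 2964 FPKM against 698 to 1388 in region 2. All 3 fibroblast markers tested were also higher (median 1.77), and the sums of this list were 16.6 to 72.5 and 4.15 to 22.9 FPKM. Their part in the Scn3b difference was not tested. Scn1a had a log2 difference of -0.38 that was not called (limma adjusted p = 0.119).

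The lesion (region 4) was compared with the rostral cord (region 3). Of the 8 members, 6 were called lower in the lesion. Of all genes 19.6% were called and 12.8% were called lower, with a median of -0.02. The members' median was -0.68. Scn2a, Scn3a and Scn3b fell most, by 0.84 (SE 0.12), 0.83 (SE 0.17) and 0.83 (SE 0.11) on the log2 scale, with limma adjusted p of 0.000233, 0.00228 and 0.000175. Scn2b fell by 0.74 (SE 0.12, limma adjusted p = 0.00048). Scn1a fell by 0.54 (SE 0.15, limma adjusted p = 0.0164) and Scn8a by 0.44 (SE 0.12, limma adjusted p = 0.0144). In all 8 members every lesion library was below every rostral library, beside 15.7% of all genes. Scn9a and Scn4b had log2 differences of -0.61 and -0.45 that were not called (limma adjusted p = 0.0746 and 0.121).

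The calls of Scn1a and Scn8a were lost without control animal 1, control animal 2 or stimulated animal 1, with adjusted p from 0.0547 to 0.205. Without the region 3 library of control animal 2 alone they were also not called (adjusted p = 0.0684 and 0.0592), and 4 members were called. Pan-neuronal markers moved with the members, since 7 of the 9 tested were called lower in the lesion, with a median of -0.61. They summed to 752 to 922 FPKM in region 4 and 1085 to 1373 in region 3. Sums of 7 oligodendrocyte markers overlapped, at 7676 to 8773 FPKM in region 4 and 7353 to 8995 in region 3. Markers of Schwann cells and of microglia and macrophages were higher in the lesion. All 5 Schwann cell markers were called (median 1.63), with sums of 79.2 to 118 FPKM in region 4 and 14.0 to 64.6 in region 3. Of 6 microglia and macrophage markers 4 were called (median 1.23), with sums of 220 to 433 FPKM in region 4 and 108 to 160 in region 3. Their part in the channel levels was not tested. Relative to the pan-neuronal markers, Scn2a, Scn3a and Scn3b were lower in the lesion by 0.26, 0.25 and 0.25 on the log2 scale (log2 differences -0.26, -0.25 and -0.25, limma adjusted p = 0.00136, 0.0403 and 0.0224). Scn2b was at -0.16 and was not called on this scale (limma adjusted p = 0.0677). On the same scale Scn8a was higher by 0.15 (limma adjusted p = 0.0347), but 76.9% of all genes were higher, 1.2% were lower and the all-gene median was 0.56. Scn1a was at 0.04 (limma adjusted p = 0.710).

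**Figure D4:**
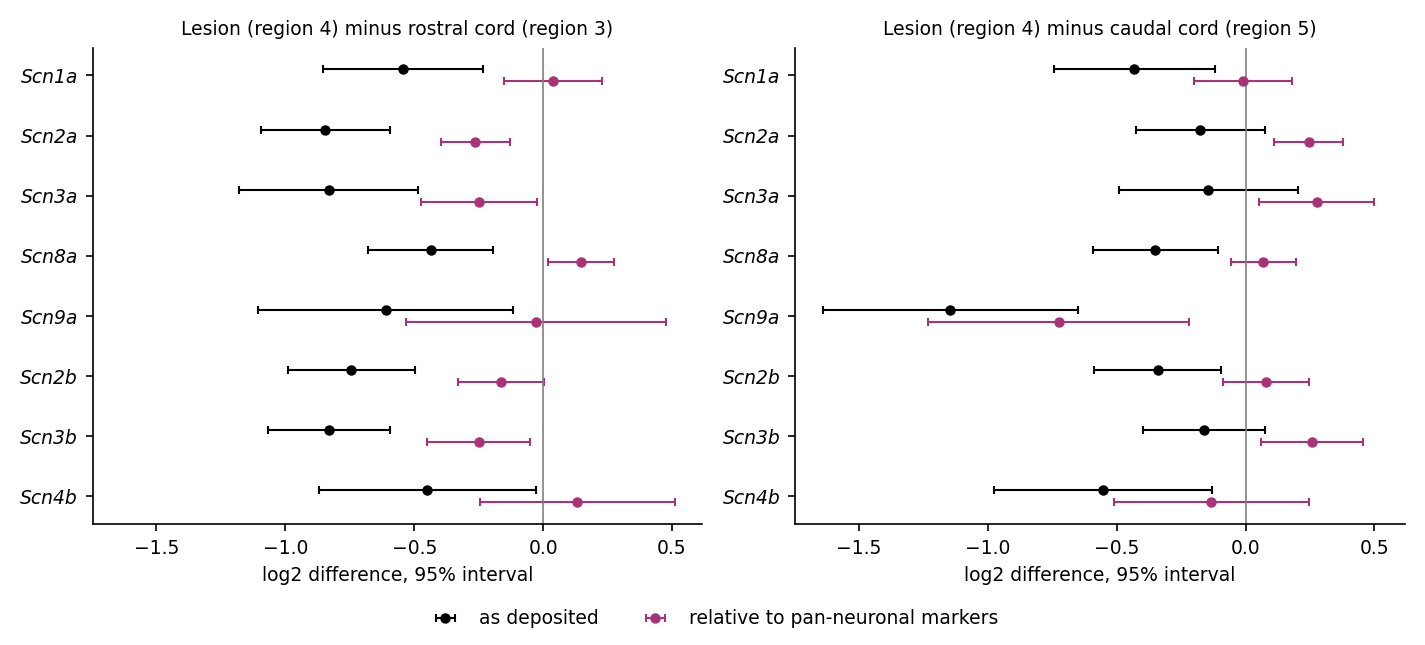
Log2 difference of the lesion minus the rostral cord (left) and minus the caudal cord (right), with 95% intervals from limma (4 libraries per region). Black points use FPKM as deposited and purple points FPKM relative to the pan-neuronal markers. In the left panel the black points lie between -0.84 and -0.44, and the purple points between -0.26 and 0.15.

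The lesion was also compared with the caudal cord (region 5), which shares its lesion libraries with the comparison above. Only Scn9a was called, with a log2 difference of -1.14 (SE 0.24, limma adjusted p = 0.0142), where 7.99% of all genes were called and 7.06% were lower. With the animal as a block, 4 members were called lower, beside 11.7% of all genes. These were Scn9a, Scn1a at -0.43, Scn8a at -0.35 and Scn2b at -0.34, with limma adjusted p of 0.0472, 0.0394 and 0.0458 for the last 3. Every lesion library was below every caudal library for Scn1a, Scn8a, Scn9a and Scn4b, beside 16.3% of all genes. The call of Scn9a rested on the 2 stimulated libraries of region 5, since without them the difference was -0.63 (limma adjusted p = 0.169) and no member was called. It was also lost without control animal 1, control animal 2 or stimulated animal 1 (adjusted p = 0.148, 0.0548 and 0.0503).

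In the caudal against the rostral cord, Scn2a, Scn3a and Scn3b were lower by 0.67, 0.69 and 0.67 on the log2 scale (log2 differences -0.67, -0.69 and -0.67, limma adjusted p = 0.00466, 0.0255 and 0.00327). By the same test, 4.32% of all genes were called and 1.55% were lower, and the all-gene median was 0.11. With the animal as a block Scn2b joined them at -0.40 (limma adjusted p = 0.0352), beside 2.04% of all genes. Scn1a, Scn8a and Scn4b had log2 differences of -0.11, -0.08 and 0.10 and were not called. Scn9a was at 0.53 and was not called either (limma adjusted p = 0.176). The 3 calls were lost without control animal 2 or without stimulated animal 1, when no member was called, and Scn3a also without control animal 1 (adjusted p = 0.0754). Over the 4 fits that each left out an animal, the log2 difference ranged from -0.77 to -0.55 for Scn2a, from -0.82 to -0.51 for Scn3a and from -0.76 to -0.53 for Scn3b. Of the Schwann cell markers 4 of 5 were higher in region 5 (median 2.06). Without the region 3 library of control animal 2 alone, Scn2a and Scn3b were called (adjusted p = 0.0219 and 0.0121) and Scn3a was not (adjusted p = 0.0867). The log2 differences without it were -0.57 for Scn2a, -0.50 for Scn3a and -0.56 for Scn3b. That library had 17.4 FPKM of cortical projection neuron markers, against 4.89 to 7.59 in the other libraries of region 3. The part of these markers in the differences was not tested.

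The stimulated animals were compared with the control animals in each region, to ask whether stimulation changed the channel genes. No member was called in any region by limma with Benjamini-Hochberg adjustment, and of all genes 0% were called in regions 1 to 4 and 0.0197% in region 5. At an unadjusted p under 0.05 there were Scn2a in region 1, Scn8a in region 3 and Scn9a in region 5, and none in regions 2 and 4. Of all genes 5.44%, 1.41%, 3.43%, 2.24% and 3.59% passed that threshold in regions 1 to 5, in this order. An exact permutation test of 2 against 2 animals cannot reach 0.05. Intervals were wide for some members. For Scn1a in region 1 the difference was -0.37 with a 95% interval from -1.13 to 0.39. For Scn4b in region 1 it was 0.33 with an interval from -1.09 to 1.76, and without stimulated animal 1, whose library had the high striatal markers, it was -0.33.

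In region 1, Scn2a was 53.6 and 56.8 FPKM in the control animals and 45.6 and 40.0 in the stimulated animals (log2 difference -0.37, SE 0.12, limma adjusted p = 0.712). Scn2a, Scn3a, Scn8a and Scn9a lay lower in both stimulated libraries than in either control library, as did 19.5% of all genes. The lowest values were those of stimulated animal 2. Sums of cortical projection neuron and pan-neuronal markers were also lower in both stimulated libraries, whereas those of astrocyte and of microglia and macrophage markers were higher. The cortical projection neuron markers summed to 377 and 386 FPKM in control and 303 and 263 in stimulated animals, and the pan-neuronal markers to 1599 and 1608 in control and 1477 and 1091 in stimulated animals. Astrocyte markers summed to 645 and 695 FPKM in control and 1071 and 1223 in stimulated animals, and microglia and macrophage markers to 134 and 125 in control and 195 and 290 in stimulated animals. Relative to the pan-neuronal markers, the log2 differences of these 4 genes were smaller, from -0.15 for Scn3a to -0.0039 for Scn9a, with Scn2a at -0.10. The part of the glial markers in the channel levels was not tested. The stimulation effect was also compared between regions 1 and 2 within animals, and no member was called by limma, as was 0% of all genes, of which 643 (4.23%) had an unadjusted p under 0.05. No member was among those. Scn8a came nearest, with a difference of effects of -0.32 (SE 0.15, limma adjusted p = 0.880).

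In the lesion the direction was the other way. Scn1a, Scn2a, Scn3a, Scn8a, Scn9a and Scn3b, which is 6 of 8 members, lay higher in both stimulated libraries than in either control library, beside 12.5% of all genes. The log2 differences ranged from 0.12 for Scn3b to 0.23 for Scn9a, and none was called (limma adjusted p = 1.00 for each). The pan-neuronal markers had a median difference of 0.15 in the same comparison, and relative to them the differences of the 8 members lay between -0.07 and 0.05, with Scn8a at -0.05 and Scn3b at -0.07. In region 2 Scn3a lay lower in both stimulated libraries, beside 6.77% of all genes, and in region 3 Scn8a did so, beside 24.7%. In region 5 Scn1a, Scn3a and Scn8a lay lower, beside 6.07% of all genes.

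Scn9a in region 5 was the largest difference between stimulated and control animals among the members. It was 1.32 and 1.18 FPKM in the control animals and 2.38 and 2.77 in the stimulated animals. It was also the only member above the control libraries in that region, as were 18.5% of all genes. The log2 difference was 1.04 (SE 0.17, 95% interval 0.57 to 1.51), with an unadjusted limma p of 0.00345 and an adjusted p of 0.709.

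Genes of peripheral sensory neurons moved with it. Scn10a (Nav1.8) and Scn11a (Nav1.9), the sodium channels of nociceptors, were listed at the floor of 0.1 FPKM in 18 of 20 libraries. In the stimulated libraries of region 5, Scn10a was 1.32 and 2.39 FPKM and Scn11a 1.41 and 2.92. Avil, an actin-binding protein of sensory neurons, was 0.372 and 0.236 FPKM in control and 4.03 and 7.92 in stimulated animals of that region. The ATP receptor P2rx3 was 0.259 and 0.383 FPKM in control and 2.46 and 4.69 in stimulated animals. Both genes were thus highest in stimulated animal 2, as was Scn9a.

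The 7 sensory ganglion markers together were 35.4 and 39.5 FPKM in control and 49.9 and 71.9 in stimulated animals of region 5, and all 7 were higher in both stimulated libraries than in either control library. Calca, which spinal motor neurons also express, made up most of these sums. Prdm12 and Mrgprd were at the floor in the control libraries. The 5 Schwann cell markers summed to 109 and 86.8 FPKM in control and 237 and 233 in stimulated animals. Prx, which encodes periaxin of myelinating Schwann cells, was 5.69 and 4.49 FPKM in control and 12.9 and 11.4 in stimulated animals. The part of ganglion or root RNA in the Scn9a level was not tested.

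**Figure D5:**
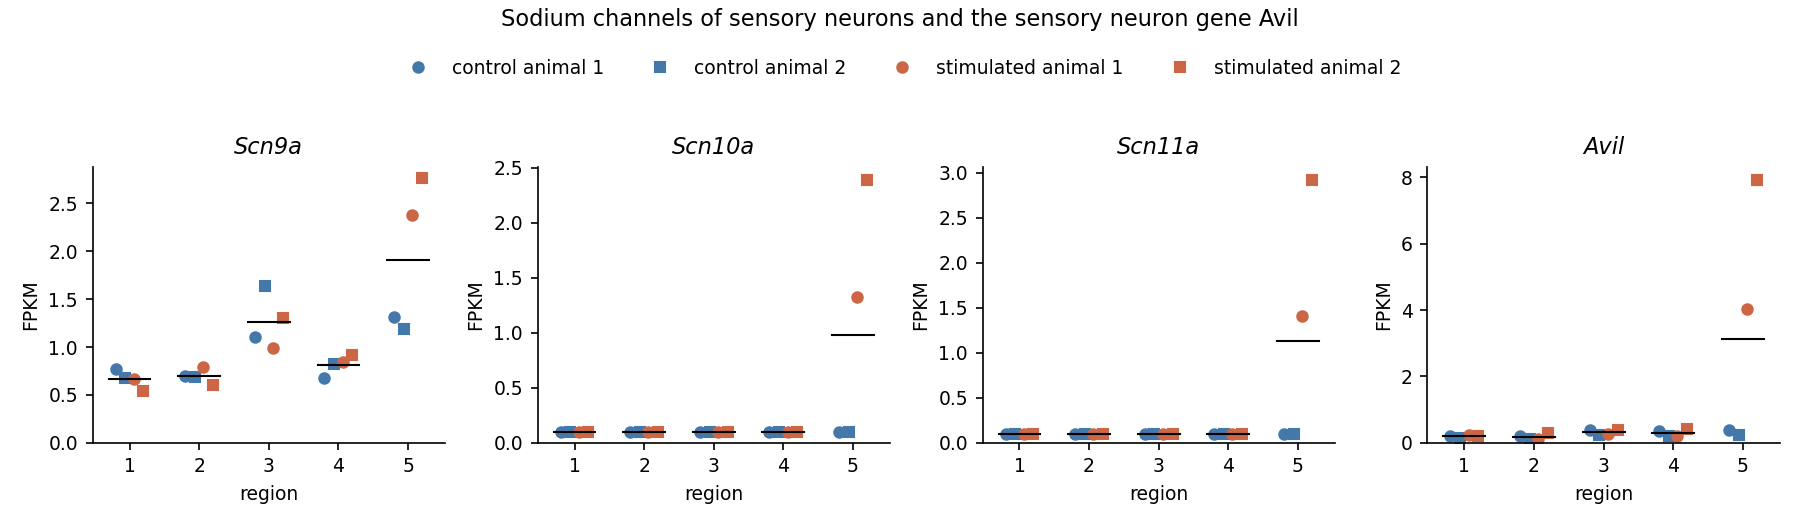
FPKM of Scn9a, Scn10a, Scn11a and Avil in each library, by region. Each point is 1 library and the black line is the mean of a region. Scn10a and Scn11a lie at 0.1 in all libraries but the 2 stimulated ones of region 5, where Scn9a and Avil also have their highest values.

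The other genes of the pathway were taken from lists of sodium channel subunits, node proteins and channel-binding factors. Among the other subunit genes, Scn7a, Scn10a and Scn11a passed the filter, and Scn4a, the channel of skeletal muscle, stayed at or under 0.373 FPKM. Scn7a, a sodium sensor of glia and Schwann cells, was lower in white matter with a log2 difference of -2.30 (limma adjusted p = 0.000273). Its values in region 5 were 2.71 and 2.16 FPKM in control and 7.88 and 7.81 in stimulated animals.

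Of 7 initial segment and node partners, 4 were called higher in white matter and 2 lower, beside 25% and 47.1% of all genes. Ank3, which encodes ankyrin-G, had a log2 difference of 0.01 (limma adjusted p = 0.967). Kcnq3, a potassium channel gene of the initial segment, was higher by 1.18 on the log2 scale (limma adjusted p = 7.55e-10). Sptbn4, the nodal spectrin, and the adhesion molecule Nrcam were higher by 0.74 and 0.82. Nfasc and Cntn1, which glia also express in part, had log2 differences of -0.81 and -0.80. The list's median was 0.74, against -0.18 for all genes. In the lesion against the rostral cord, 2 of the 7 were called lower, beside 12.8% of all genes. Sptbn4 was among them at -0.63 (limma adjusted p = 0.00166).

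The FGF homologous factors bind the cytoplasmic tail of alpha subunits. Fgf12, Fgf13 and Fgf14 were higher in white matter, by 0.46, 1.13 and 0.67 on the log2 scale, and Fgf11 was lower at -1.82. In the lesion against the rostral cord the same Fgf12, Fgf13 and Fgf14 were lower, at -0.65, -1.06 and -0.63 (limma adjusted p = 0.000951, 0.000396 and 0.00513), a median of -0.64 for the 4 genes of the list against -0.02 for all genes. Of 4 paranode and juxtaparanode genes, the paranodal Cntnap1 was higher in white matter by 0.83, whereas Cntn2 and the potassium channels Kcna1 and Kcna2 were lower, at -1.12, -1.02 and -0.64. Cntnap1 was lower in the lesion than in rostral cord, at -0.65 (limma adjusted p = 0.000717).

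For each member, the genes whose log2 FPKM was most like its own over the 20 libraries were named by Pearson's r, as a description. The libraries share animals and tissues, so a high r mainly reflects the difference between regions. Scn2a was most like Syt1 (r = 0.998), Scn2b like Tusc3 (r = 0.993) and Scn3b like Camkv (r = 0.996). Scn8a was most like Map2 (r = 0.991), a dendritic protein that is also on the pan-neuronal list. Scn1a was most like Adarb1 (r = 0.979), Scn3a like Zmat4 (r = 0.982) and Scn4b like Desi1 (r = 0.973). Scn9a had the lowest best match, Tmem51 (r = 0.894). Among the members, Scn2a and Scn3b were most alike (r = 0.989), and Scn2a and Scn4b were most unlike (r = -0.834).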

How the data were processed

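RNA-seq libraries from 5 regions of 4 rats entered through their deposited FPKM table. The authors removed ribosomal RNA, read pairs of 51 bp, aligned them to Rnor6 with TopHat2 2.1.0 and estimated expression with Cufflinks 2.2.1, with an annotation from an earlier study whose version is not given in the sources used here. In the deposited table FPKM values are floored at 0.1. FPKM carries no read numbers, so the depth behind a value is unknown and precision is the spread between libraries. How reads shared by similar subunit genes, or by overlapping or antisense genes, were assigned is not given, and RefSeq places LOC134486320 over Scn9a and Crip2-ps1 over Scn8a.

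The 8 members and all gene lists were chosen with earlier results of these data known. The members were named, gene lists were described by counts, and 3 genes of highest Pearson's r were sought for each member among genes with a mean of at least 1 FPKM. A marker list is a plain sum of FPKM. Some genes of these lists are not reported here by name. Symbols were matched by name, and 8 of 8 were found in RefSeq.

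Values were log2-transformed, genes with at least 1 FPKM in any library were kept, and limma 3.58.1 under R 4.3.3 was used (lmFit, then eBayes with its trend option), with Benjamini-Hochberg adjustment over all 15210 genes and a threshold of 0.05. Regions were compared over all 20 libraries with a mean per region. Stimulation was tested in the 4 libraries of each region, and the difference of effects between regions 1 and 2 on differences within animals. The fits were tested on simulated data. An animal gave the equally numbered libraries of its group in all regions, so region comparisons are paired by animal. Deviations from the region means correlated at 0.65 between regions 1 and 2, at 0.23 between 3 and 4, at 0.08 between 3 and 5, and at -0.003 between 4 and 5. Figures and summaries used Python 3.11.15, numpy 2.4.6, pandas 2.3.3 and matplotlib 3.10.9.

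Alternatives were a pseudocount of 1, no filter or 1 FPKM in at least 2 libraries, quantile normalization, upper-quartile scaling, values relative to pan-neuronal markers, a model of all libraries together, eBayes with no trend, a block for the animal or for the replicate number, and leaving out each animal. Leaving out single libraries with markers of other tissue was added after seeing the data. The stimulation comparisons rest on 2 animals per group, and the region comparisons on the same 4 animals in every region.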

Additional observations from a re-analysis of the deposited data

Results flagged for a closer look

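For each member, the 4 libraries of each region were searched for outlying values, and so were its 8 white matter libraries together. In these 48 groups, a library stood far from the others in 4 cases, where chance alone gives about 1 in 20. All 4 cases were within a region. In region 3, control animal 2 was far above the others for Scn1a (35.1 FPKM), Scn2a (14.8 FPKM) and Scn3a (7.84 FPKM). The same library had 11.8 FPKM of Slc17a7, the vesicular glutamate transporter of cortical neurons, against 0.689 to 2.78 in the other libraries of region 3, and the part of this in the channel levels was not tested. In region 2, stimulated animal 2 was far below the others for Scn3a (6.93 FPKM). That library also had the high microglia markers, whose part was not tested.

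The stimulated libraries lay on opposite sides of the controls in different regions for 5 alpha subunit genes, and these differences between regions were not tested. Each value is the log2 effect of stimulation in the higher region minus that in the lower. Against region 1, the lesion effect was higher by 0.58 for Scn2a, 0.62 for Scn3a, 0.55 for Scn8a and 0.50 for Scn9a. Against region 5, it was higher by 0.29 for Scn1a, 0.38 for Scn3a and 0.32 for Scn8a. The lesion effect was higher by 0.38 than that in region 2 for Scn3a, and by 0.34 than that in region 3 for Scn8a. For Scn9a, the effect in region 5 was higher by 1.31 than that in region 1.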

How the results depend on the processing

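White matter against spinal cord had 8 members called under every alternative. Relative to pan-neuronal markers, Scn8a turned to -0.29 there. On that scale Scn1a was at 0.038 and Scn8a at 0.15 in region 4 against region 3, and Scn2a at 0.24 in region 4 against region 5, all opposite to the values as deposited. Region 1 against region 2, with 1 member called, had 0 without a filter or relative to pan-neuronal markers, 2 with quantile normalization or upper-quartile scaling, and 0 to 1 in leaving out an animal. Region 4 against region 3, with 6, had 4 relative to pan-neuronal markers, 7 with quantile normalization, 4 without the region 3 library of control animal 2, and 4 to 6 in leaving out an animal. Region 4 against region 5, with 1, had 2 relative to pan-neuronal markers, 4 with the animal as a replicate block, 0 without the 2 stimulated libraries of region 5, and 0 to 2 in leaving out an animal. Region 5 against region 3, with 3, had 2 without a filter, and 4 with quantile normalization, upper-quartile scaling or the animal as a block. It had 5 relative to pan-neuronal markers, of which 4 were lower and Scn9a was higher at 0.70 (limma adjusted p = 0.0392). It had 0 without those 2 libraries, and 0 to 4 in leaving out an animal.

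With the replicate block in the stimulation comparisons 0 members were called in every region. Control and stimulated libraries with the same number are different animals, whose deviations correlated between -0.21 and 0.32. The animal as a block changed no call but those given with the results. Under the settings named in the methods other than leaving out animals or libraries, 19 called differences kept direction and call in 145 of 152 values, and 69 uncalled ones stayed uncalled in 532 of 544, of which 37 changed sign. Leaving out an animal kept the call in 57 of 76 values. Over all genes, 3808 were higher and 7169 lower in white matter, against 5054 and 6018 with quantile normalization and 4707 and 6605 with upper-quartile scaling. Region 4 against region 5 split as 142 higher and 1074 lower, against 195 and 275 and then 329 and 299. Region 5 against region 3 split as 422 and 235, against 435 and 674 and then 419 and 751, and region 1 against region 2 as 1043 and 267, against 943 and 841 and then 1316 and 930. The cause was not tested. With 2 animals per group, the 95% interval of the stimulation effect included 0 for every member in every region but Scn2a in region 1, Scn8a in region 3 and Scn9a in region 5.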
